A study of Mus musculus with 32 samples.

Results

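The genes described here make and use methyl groups in the liver. The set holds 38 genes of the methionine cycle, its folate and betaine branches, transsulfuration, choline oxidation, phospholipid synthesis and the polyamines, taken by symbol. On the arrays 37 of the 38 had at least 1 probe, 70 probes in all, out of 55681 probes that are not controls, and all 37 genes were among the 21710 genes tested. The remaining gene, Amd1, which encodes S-adenosylmethionine decarboxylase, had no probe of that name. Its near-identical copy Amd2, looked up after its values were seen, passed the test in none of the 16 comparisons and differed by 0.32 ± 0.31 (log2, SE) between the diets without agonist, with an adjusted p of 0.463 in limma.

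Total RNA from 32 livers of male C57/BL6 mice was hybridised to one-colour Agilent arrays, 1 liver per array, in 8 groups of 4 independent livers. Mice ate either a standard diet or a diet deficient in methionine and choline (MCD), which is used as a model of steatohepatitis, for 3 weeks. Some labels name methyl groups in place of methionine for this diet. On each diet a further group also received a dual agonist of the GLP-1 and glucagon receptors (GLP1R and GCGR) at 4.4 mg/kg/day, given every other day for 2 weeks. The same 4 regimens were repeated in mice that underwent a 70% partial hepatectomy, kept their diet and treatment, and were sampled 2 weeks later. For the standard diet group with agonist and hepatectomy the labels name a chow diet, which is taken here as the standard diet.

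Methionine is activated to S-adenosylmethionine, the methyl donor of most methylation reactions. After the methyl group is given away, the product is hydrolysed to homocysteine, which is either methylated back to methionine with folate or betaine, or passed through transsulfuration to cysteine and taurine. Betaine comes from the oxidation of choline, choline and ethanolamine are also built into membrane phospholipids, and decarboxylated S-adenosylmethionine supplies the aminopropyl groups of spermidine and spermine.

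A level is the log2 of the processed spot signal minus the log2 of that array's 75th percentile, so that a difference of 1 is a 2-fold difference, and changes are given as log2 differences with their SE. A gene "rose" or "fell" only where its adjusted p was under 0.05 in limma (Benjamini-Hochberg over 21710 genes). The share of probes that exceeded their background by the scanner software's test ran from 43.0% to 69.1% over the arrays, and 32 of the 37 genes were so on all 32 arrays. The highest share was that of standard replicate 2, and the next was 60.6%. Among the standard arrays it lay nearest the MCD arrays for Mat2b, Ahcy, Mthfd1, Cbs, Cdo1, Aldh7a1, Chpt1, Odc1 and Sms. It lay furthest from them for Mat2a and Smox. Because whole livers were used, fewer cells of a type and less RNA per cell cannot be told apart. Levels of different genes come from different probes and are not set against each other.

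The groups follow the labels of the scanner files, and 1 disagreement with the deposited table of processed values bears on all results. Each of the 32 columns of that table matched best an array of its own replicate number, but 16 columns fell to an array of a different group: the columns named for the MCD diet fitted arrays labelled standard diet plus agonist, and the reverse, before and after hepatectomy alike. Their rank correlation with the array of their own label was 0.880 to 0.937, and over all 32 columns the best match was 0.917 to 0.990. If the table's labels were the right ones, the diet and agonist comparisons below would trade places, hepatectomy on the MCD diet without agonist would trade with hepatectomy on the standard diet with agonist, and the diet by hepatectomy interactions would be agonist by hepatectomy ones. The diet by agonist interaction is the same under either assignment. Each slide carried 2 groups: the diets were compared within a slide before hepatectomy and the agonist within a slide after it, while all other direct comparisons ran across slides, so that slide and group cannot be told apart there. Livers before and after hepatectomy were also read on different scanners and days.

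In at least 1 of the 4 comparisons of the MCD with the standard diet, 23 of the 37 genes passed. The share of all genes that passed in at least 1 of them was not computed. The count of 23 and its split below are therefore not read as a result about the set. Without agonist 5 rose and 10 fell, 40.5% of the set, where 25.8% of all genes tested passed, 10.8% higher and 15.1% lower. With agonist 6 rose and 2 fell, 21.6% of the set against 15.1% of all genes, 8.18% higher and 6.95% lower. After hepatectomy 3 rose and 9 fell without agonist, 32.4% of the set against 11.4% of all genes, 5.61% higher and 5.84% lower. After hepatectomy with agonist 3 rose and 2 fell, 13.5% against 8.29%, 4.4% higher and 3.89% lower. The share of the set was thus above that of all genes in each diet comparison, a difference that was not tested. Of the 23 genes, 14 passed in 1 of the 4 diet comparisons, 3 in 2, 4 in 3 and 2 in all 4, and 0 rose in one diet comparison and fell in another. The 13 genes that passed in none of the 12 direct comparisons were Mat1a, Ahcyl1, Bhmt2, Shmt1, Chdh, Slc44a1, Chkb, Pcyt1a, Cept1, Etnk1, Pcyt2, Nnmt and Sat1.

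The median change of the set without agonist was -0.19, beside -0.13 over all genes tested. With agonist it was 0.12, beside 0.03, and after hepatectomy it was -0.25 and -0.19, beside -0.03 and -0.00. Scaling changed the split of the calls: with each array scaled to its median, which put the median of all genes at 0.24 in the comparison without agonist, 9 genes rose and 3 fell there, and with quantile normalization, which put it at 0.00, 7 rose and 6 fell. With agonist the split was 3 and 3 under median scaling and 4 and 2 under quantile normalization, and after hepatectomy with agonist it was 3 and 1, and 3 and 3. None of the calls named below changed sign under either scaling.

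**Figure D1:**
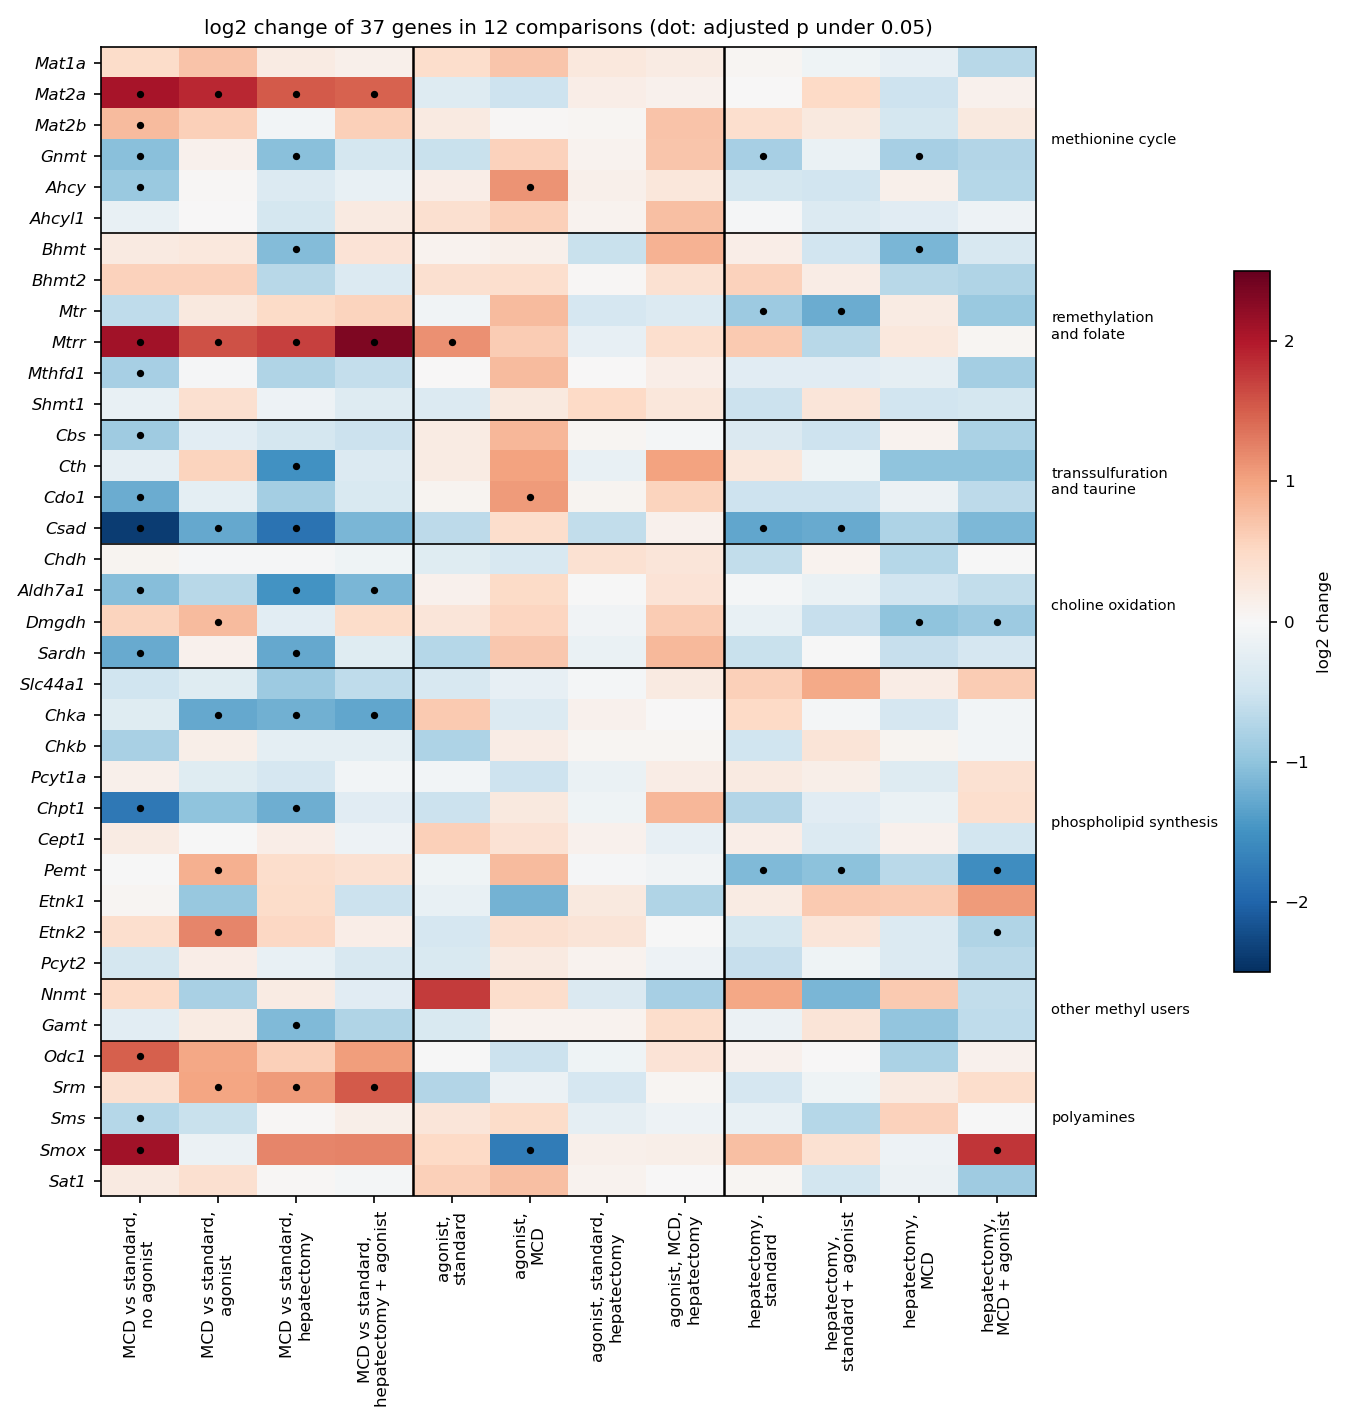
Log2 change of the 37 genes (lines, by role) in the 12 direct comparisons (columns), red for higher and blue for lower, with a dot where the adjusted p was under 0.05. Mat2a and Mtrr carry a dot in all 4 diet columns, and the agonist columns after hepatectomy carry none. The dim probe of Mtrr entered the test only through MCD groups.

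The sequences below are those of probes that measured genes on which the results turn, so that a reader can see which stretch of the transcript each value reports. They are 60 bases long, are printed 5′ to 3′ as the files give them, have a reading frame without a stop codon, and are placed on mm9 as the files give it. The exon each lies in was not looked up. The Gnmt probe spans 149 bases of the genome, more than its own length. For Gnmt and Sardh it is the probe whose values are reported, and for the others it is a further probe of the gene.
Mat2a, chr6:72385926-72385985, minus strand: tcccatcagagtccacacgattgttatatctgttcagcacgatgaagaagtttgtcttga
Gnmt, chr17:46862894-46863042, minus strand: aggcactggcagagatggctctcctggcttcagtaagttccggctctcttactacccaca
Sardh, chr2:27047412-27047471, minus strand: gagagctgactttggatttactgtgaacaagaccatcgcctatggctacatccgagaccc
Chka, chr19:3864699-3864758, plus strand: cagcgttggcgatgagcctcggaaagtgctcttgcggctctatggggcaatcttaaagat
Etnk2, chr1:135262332-135262391, plus strand: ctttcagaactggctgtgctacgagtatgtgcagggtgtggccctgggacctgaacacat
Smox, chr2:131347853-131347912, plus strand: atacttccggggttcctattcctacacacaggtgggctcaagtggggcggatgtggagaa

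In the methionine cycle, Mat2a, the methionine adenosyltransferase of tissues other than adult liver and of dividing cells, rose on the MCD diet in all 4 diet comparisons. Mat1a, the adult liver enzyme for the same reaction, passed in none, with 0.46 ± 0.31 (adjusted p = 0.277 in limma) without agonist. Mat2a read 5.30, 4.67, 4.85 and 4.70 on the standard arrays and 6.64, 7.58, 6.58 and 6.97 on the MCD arrays. Every MCD array lay above every standard array, a change of 2.06 ± 0.29 (adjusted p = 1.15e-05, limma). With agonist, Mat2a was 4.47, 4.36, 4.51 and 4.86 on the standard diet and 6.48, 6.38, 6.72 and 6.13 on the MCD diet, again without overlap and with a change of 1.88 ± 0.29 (adjusted p = 5.53e-05, limma). Its diet responses with and without agonist differed by -0.19 ± 0.40 (adjusted p = 0.81 for the interaction in limma).

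After hepatectomy Mat2a was 4.94, 4.81, 4.85 and 4.97 on the standard diet and 5.99, 6.73, 6.50 and 6.46 on the MCD diet, a rise of 1.53 ± 0.29 (adjusted p = 0.000778, limma). With agonist after hepatectomy it was 4.76, 5.14, 4.92 and 5.40 on the standard diet and 6.94, 6.85, 7.06 and 5.29 on the MCD diet. The groups overlapped there through 1 MCD array, and the rise was 1.48 ± 0.29 (adjusted p = 0.00138, limma). The second Mat2a probe, printed above, also rose in all 4, by 1.96, 2.31, 1.26 and 2.01 in the order given.

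Gnmt, glycine N-methyltransferase, which consumes S-adenosylmethionine to make sarcosine and is abundant in hepatocytes, fell on the MCD diet without agonist. It read 9.15, 9.40, 9.21 and 9.53 on the standard arrays and 8.33, 7.98, 8.58 and 8.25 on the MCD arrays, which lay below all standard arrays. The change was -1.04 ± 0.25 (adjusted p = 0.0033, limma), and under median scaling it was -0.67 and did not pass (adjusted p = 0.069). With agonist the groups overlapped, at 8.95, 8.70, 8.85 and 8.56 on the standard diet and 9.01, 8.32, 9.26 and 8.89 on the MCD diet, with a change of 0.11 ± 0.25 (adjusted p = 0.832, limma). After hepatectomy Gnmt was 7.63, 8.86, 8.99 and 8.54 on the standard diet and 7.19, 7.52, 7.56 and 7.53 on the MCD diet, a change without overlap of -1.05 ± 0.25 (adjusted p = 0.00646, limma), which did not pass when only the compared groups were fitted (adjusted p = 0.0688).

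Mat2b, the regulatory subunit that pairs with the Mat2a product, rose by 0.78 ± 0.26 (adjusted p = 0.0263, limma) without agonist. It was 3.25, 4.45, 3.30 and 3.21 on the standard diet and 4.23, 4.17, 4.42 and 4.50 on the MCD diet. The standard array at 4.45 lay among the MCD arrays. Its adjusted p was 0.058 to 0.0823 when standard replicate 1, 3 or 4 or MCD replicate 3 or 4 was left out. Ahcy, which hydrolyses S-adenosylhomocysteine, fell by 0.93 ± 0.31 (adjusted p = 0.0292, limma), from 7.11, 6.54, 6.98 and 6.74 to 5.79, 5.61, 6.62 and 5.65, with 1 MCD array above the lowest standard array. The adjusted p of Ahcy was 0.0624 to 0.082 without standard replicate 1 or 3 or MCD replicate 1, 2 or 4, and 1 of its 3 probes passed. Under median scaling Ahcy was at -0.56 (adjusted p = 0.261). It also missed the threshold under quantile normalization (adjusted p = 0.0531) and with the mean over probes (adjusted p = 0.0877). Mat2b did so with only the compared groups (adjusted p = 0.0854).

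Among the remethylation and folate genes, Mtrr, the reductase that reactivates methionine synthase, passed as higher on the MCD diet in all 4 diet comparisons, but its probe is dim and 3 of the calls depended on the background correction. A probe was tested if all 4 arrays of some group were well above background, and only MCD groups met this for Mtrr. The gene thus entered the test through groups in which it was high, and its diet calls are not read as support for a rise. It was well above background on 0 of 4 standard arrays, 4 of 4 MCD arrays, 2 of 4 standard arrays with agonist and 4 of 4 MCD arrays with agonist. After hepatectomy it was so on 0 of 4 standard arrays with and without agonist, on 1 of 4 MCD arrays and on 4 of 4 MCD arrays with agonist. A fold is given as a bound where the dimmer group was well above background on none of its arrays and the brighter one on all 4.

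Mtrr measured -6.50, -6.10, -5.15 and -5.96 on the standard arrays and -4.21, -3.98, -3.72 and -3.38 on the MCD arrays, at least 2.08-fold higher (adjusted p = 5.19e-05, limma). With agonist Mtrr was -4.52, -5.95, -4.28 and -4.38 on the standard diet and -3.22, -3.42, -2.89 and -3.23 on the MCD diet, a difference that passed (adjusted p = 0.00152, limma) although 2 of the 4 standard arrays were not well above background. After hepatectomy Mtrr also passed without agonist (adjusted p = 0.00111, limma), where 1 of the 8 arrays was well above background and no fold is given. With agonist after hepatectomy it was at least 2.57-fold higher (adjusted p = 5.33e-05, limma). In none of the 4 diet comparisons did the groups overlap. With another background correction, normexp, 3 of these 4 calls were lost: the difference without agonist or surgery turned to -0.24 (adjusted p = 0.262, limma), and those after hepatectomy were 0.40 without (adjusted p = 0.14) and 0.40 with agonist (adjusted p = 0.138).

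Bhmt, betaine-homocysteine methyltransferase, fell on the MCD diet after hepatectomy, from 8.74, 9.47, 9.34 and 9.17 to 7.05, 7.95, 8.72 and 8.68. All 4 MCD arrays lay below the standard arrays, by 1.08 ± 0.34 on average (adjusted p = 0.0346, limma), and 3 of its 4 probes passed. Its adjusted p was 0.0694 to 0.172 without standard replicate 2, 3 or 4 or MCD replicate 1 or 2 of the hepatectomy groups, and 0.0594 to 0.116 under normexp, median scaling, no filter on dim probes and only the compared groups. In livers without surgery Bhmt differed by 0.23 ± 0.34 (adjusted p = 0.649, limma) between the diets.

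Mthfd1, which interconverts the one-carbon forms of tetrahydrofolate in the cytosol, fell by 0.82 ± 0.31 (adjusted p = 0.0476, limma) without agonist. It was 5.63, 4.93, 6.45 and 6.14 on the standard diet and 4.80, 5.12, 5.46 and 4.46 on the MCD diet, and the groups overlapped. The call was lost, with an adjusted p of 0.0614 to 0.169, when any of the 8 arrays other than standard replicate 2 and MCD replicate 3 was left out, and with an adjusted p of up to 0.375 under median scaling and quantile normalization, normexp, no filter on dim probes, only the compared groups and the replicate block (adjusted p = 0.0526). Mtr, methionine synthase, passed in no diet comparison with its brighter probe, -0.63 ± 0.31 without agonist (adjusted p = 0.128, limma), but its second probe rose by 0.77 ± 0.27 (adjusted p = 0.0391, limma over probes) and, with agonist, by 0.85 ± 0.27 (adjusted p = 0.0333). The Mtr probes therefore disagreed in sign without agonist.

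In transsulfuration and taurine synthesis, 3 of 4 genes fell on the MCD diet without agonist, 1 with agonist, and 2 after hepatectomy without agonist, where 15.1%, 6.95% and 5.84% of all genes fell. Under median scaling 1 of the 3, Csad, still passed without agonist. Csad, cysteine sulfinic acid decarboxylase, on the route to taurine, had the lowest diet change of the 37 genes, -2.37 ± 0.38 (adjusted p = 6.62e-05, limma). It read 5.33, 5.93, 6.36 and 6.37 on the standard diet and 3.67, 3.12, 4.89 and 2.83 on the MCD diet, with no overlap. With agonist Csad was 5.43, 5.57, 4.66 and 5.72 against 4.19, 4.11, 3.85 and 4.13, also separate, a fall of 1.27 ± 0.38 (adjusted p = 0.0223, limma).

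The Csad call with agonist was lost without standard replicate 1, 2 or 4 or MCD replicate 3 of the agonist groups, with an adjusted p of 0.051 to 0.0655. After hepatectomy Csad was 4.19, 5.21, 4.76 and 4.67 on the standard diet and 2.33, 2.64, 3.04 and 3.43 on the MCD diet. The groups were separate, with a fall of 1.85 ± 0.38 (adjusted p = 0.00201, limma). In the agonist groups after hepatectomy the difference was -1.13 ± 0.38 (adjusted p = 0.0634, limma).

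Cdo1, cysteine dioxygenase, fell by 1.24 ± 0.35 (adjusted p = 0.0108, limma), from 7.96, 6.59, 8.38 and 7.73 to 6.84, 6.35, 6.87 and 5.62. The groups overlapped through 1 standard array, and without MCD replicate 4 the adjusted p was 0.0579. Cdo1 was at -0.87 under median scaling (adjusted p = 0.121) and at -0.86 under normexp (adjusted p = 0.141). With only the compared groups its adjusted p was 0.0501 in limma. Cbs, cystathionine beta-synthase, the entry to transsulfuration, fell by 0.90 ± 0.30 (adjusted p = 0.028, limma). It was 9.09, 8.14, 8.26 and 8.23 on the standard diet and 7.79, 7.41, 7.86 and 7.07 on the MCD diet, without overlap. Its adjusted p was 0.0623 to 0.119 without standard replicate 1 or MCD replicate 2 or 4. Cbs was at -0.52 under median scaling (adjusted p = 0.294) and at -0.59 under quantile normalization (adjusted p = 0.121).

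Cth, cystathionine gamma-lyase, the next enzyme, passed only after hepatectomy without agonist. It was 6.23, 6.79, 7.02 and 7.04 on the standard diet and 4.87, 5.09, 5.38 and 5.66 on the MCD diet, a fall without overlap of 1.52 ± 0.36 (adjusted p = 0.00568, limma). Both of its probes fell there, the other one by 1.99 ± 0.41 (adjusted p = 0.0019, limma over probes).

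In choline oxidation, Chdh, which starts the route to betaine, passed in none of the 12 direct comparisons, whereas Sardh and Aldh7a1 fell without agonist. Sardh, sarcosine dehydrogenase, which turns the Gnmt product back into glycine, read 6.94, 7.10, 7.20 and 7.43 on the standard diet and 5.91, 5.90, 6.10 and 5.72 on the MCD diet. The groups were separate, with a fall of 1.26 ± 0.25 (adjusted p = 0.0007, limma). With agonist Sardh was 6.23, 6.67, 6.63 and 6.31 against 6.28, 6.57, 6.99 and 6.47, overlapping, with a change of 0.12 ± 0.25 (adjusted p = 0.817, limma). After hepatectomy it was 5.68, 7.04, 7.04 and 6.69 against 5.25, 5.18, 5.96 and 4.96, a fall of 1.27 ± 0.25 (adjusted p = 0.0014, limma) with 1 MCD array above the lowest standard array. With only the compared groups fitted its adjusted p after hepatectomy was 0.0605.

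Aldh7a1, which oxidises betaine aldehyde to betaine and also serves lysine breakdown, was 8.32, 6.97, 8.01 and 7.81 on the standard diet and 6.58, 6.46, 7.42 and 6.39 on the MCD diet. The groups overlapped, and the fall was 1.07 ± 0.35 (adjusted p = 0.0258, limma). The Aldh7a1 call was lost without standard replicate 1 or 3 or MCD replicate 1, 2 or 4, with an adjusted p of 0.0574 to 0.0922, under median scaling at -0.70 (adjusted p = 0.231) and under quantile normalization at -0.82 (adjusted p = 0.074). After hepatectomy Aldh7a1 was 7.07, 7.89, 8.13 and 7.87 against 6.80, 5.99, 5.99 and 6.16, separate, with a fall of 1.50 ± 0.35 (adjusted p = 0.00569, limma).

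With agonist after hepatectomy Aldh7a1 was 7.66, 7.77, 7.98 and 7.47 on the standard diet and 6.87, 6.39, 6.13 and 6.92 on the MCD diet. These groups were separate too, and the fall of 1.14 ± 0.35 (adjusted p = 0.0398, limma) was lost, at 0.0781 to 0.135, without standard replicate 1, 2 or 3 or MCD replicate 2 or 3. The call was also lost under median scaling (adjusted p = 0.131) and without the filter on dim probes (adjusted p = 0.0737). The second Aldh7a1 probe was dim, well above background on 23 of the 32 arrays, and its changes are not given. Dmgdh, dimethylglycine dehydrogenase, went the other way with agonist: it was 6.51, 5.90, 6.88 and 6.48 on the standard diet and 7.41, 6.66, 7.62 and 7.21 on the MCD diet. The groups overlapped, and the rise of 0.78 ± 0.27 (adjusted p = 0.0457, limma) was lost, at 0.0716 to 0.167, without standard replicate 1, 2 or 4 or MCD replicate 1, 3 or 4 of the agonist groups. It was lost as well under normexp (0.54, adjusted p = 0.277), median scaling (0.62, adjusted p = 0.15) and quantile normalization (0.70, adjusted p = 0.0552). The same held with no filter on dim probes (adjusted p = 0.0831) and with only the compared groups (adjusted p = 0.173).

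**Figure D2:**
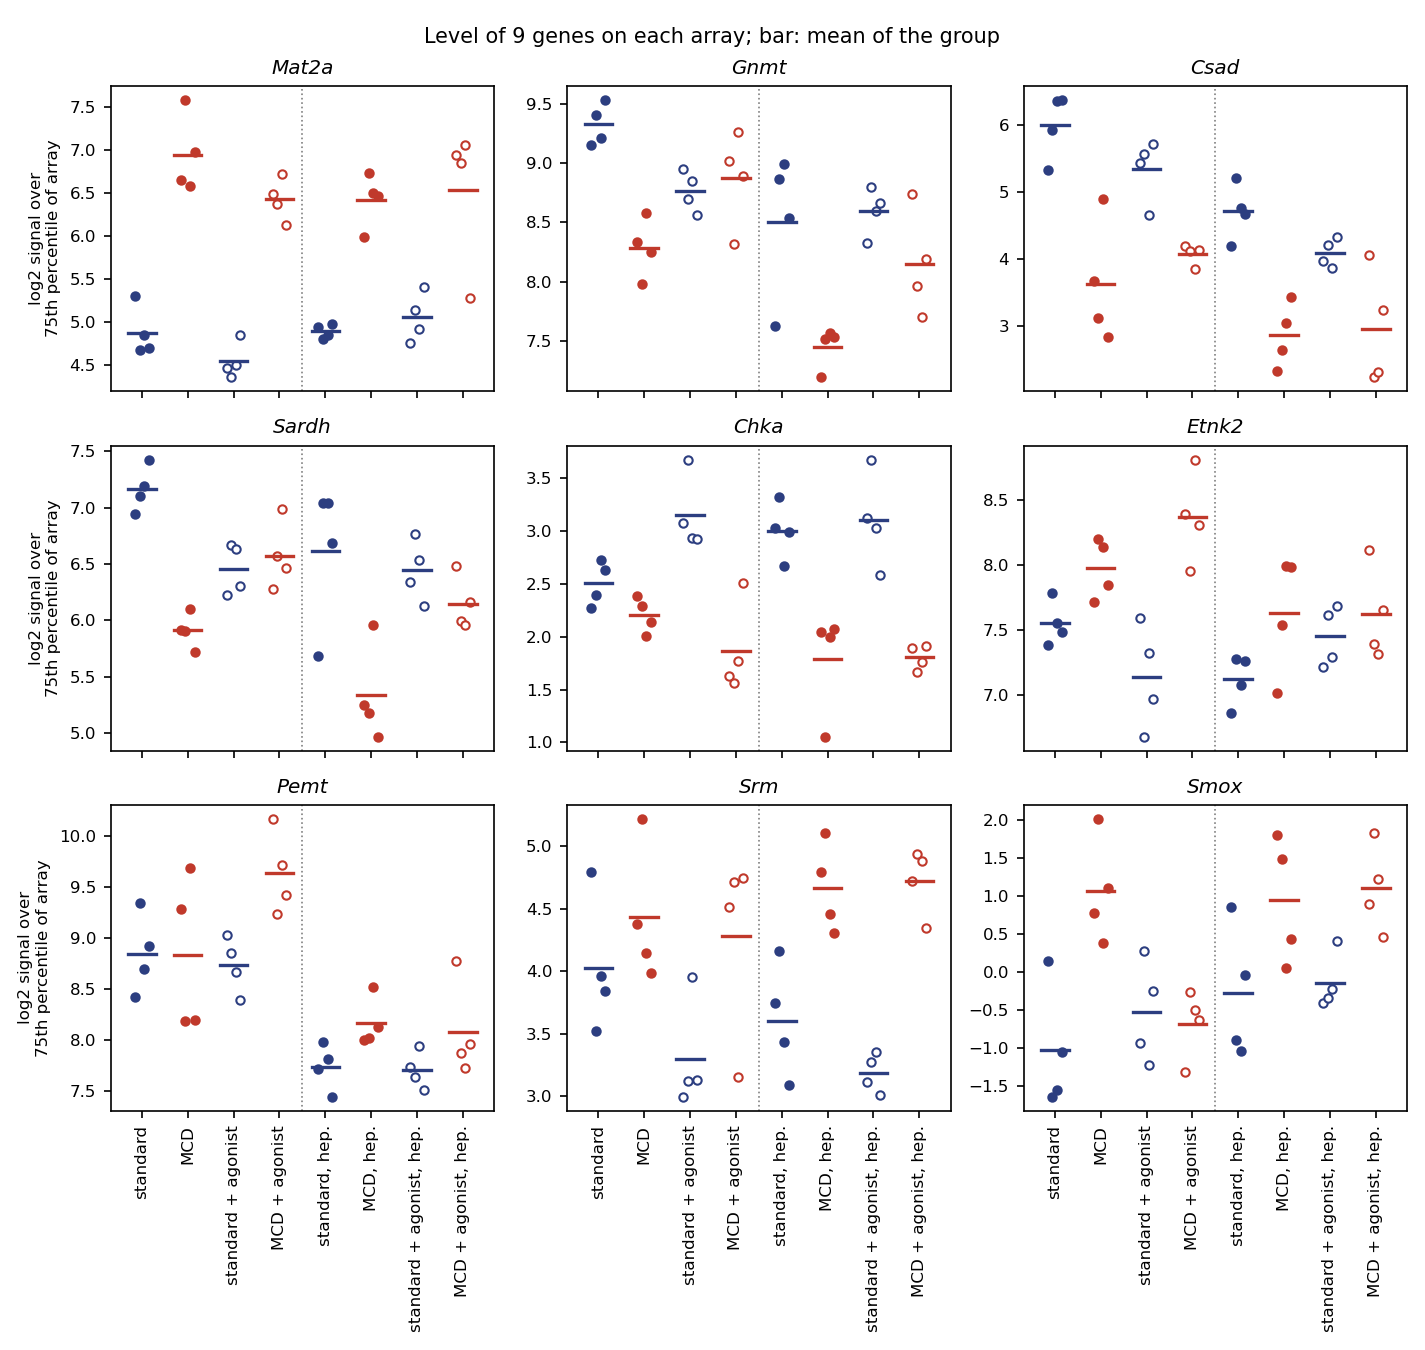
Level of 9 genes (log2 signal over the array's 75th percentile) on each of the 32 arrays, with a bar at the mean of each group of 4, blue for the standard and red for the MCD diet, open circles for agonist, and livers after hepatectomy to the right of the dotted line. Mat2a on the MCD diet lies at 5.29 and above in every group, and Gnmt and Sardh are low on the MCD diet without agonist.

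In phospholipid synthesis, Chka, the choline kinase that opens the CDP-choline route, fell on the MCD diet in 3 of the 4 diet comparisons, all but the one without agonist or surgery. There it was 2.27, 2.39, 2.72 and 2.63 on the standard diet and 2.39, 2.29, 2.01 and 2.14 on the MCD diet, overlapping, with a change of -0.30 ± 0.25 (adjusted p = 0.394, limma). With agonist Chka was 3.08, 3.67, 2.93 and 2.92 against 1.62, 1.57, 1.77 and 2.50. All MCD arrays were lower, by 1.28 ± 0.25 (adjusted p = 0.000822, limma).

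After hepatectomy Chka was 3.03, 3.32, 2.67 and 2.99 on the standard diet and 2.04, 1.05, 1.99 and 2.07 on the MCD diet, a fall of 1.21 ± 0.25 (adjusted p = 0.00203, limma). With agonist after hepatectomy it was 3.12, 3.67, 3.02 and 2.58 against 1.89, 1.66, 1.76 and 1.91, a fall of 1.29 ± 0.25 (adjusted p = 0.00137, limma). Neither pair of groups overlapped. All 4 Chka probes fell with agonist, with changes from -2.30 to -1.28, and all 4 after hepatectomy with agonist, while 3 of 4 passed after hepatectomy without agonist. The test of the difference between its diet responses with and without agonist gave -0.99 ± 0.35 (adjusted p = 0.0686, limma).

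Chpt1, cholinephosphotransferase, which completes phosphatidylcholine, fell by 1.79 ± 0.36 (adjusted p = 0.000649, limma) without agonist, from 4.75, 4.12, 4.60 and 4.57 to 3.04, 2.02, 2.99 and 2.83, without overlap. The second Chpt1 probe differed by -0.41 ± 0.31 (adjusted p = 0.348, limma over probes). After hepatectomy Chpt1 was 2.85, 4.39, 4.10 and 3.76 against 2.41, 1.72, 2.97 and 3.12, overlapping, with a fall of 1.22 ± 0.36 (adjusted p = 0.025, limma). That call was lost, at 0.0527 to 0.123, without standard replicate 2, 3 or 4 or MCD replicate 1 or 2, and the second probe differed by -0.02 ± 0.31. The Chpt1 call after hepatectomy was lost too under normexp (adjusted p = 0.0531) and median scaling (adjusted p = 0.0507). The same held with the mean over probes (adjusted p = 0.154) and with only the compared groups (adjusted p = 0.102).

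Etnk2, an ethanolamine kinase that opens the CDP-ethanolamine route, rose on the MCD diet with agonist. It was 7.60, 6.68, 7.32 and 6.97 on the standard diet and 8.39, 7.95, 8.81 and 8.31 on the MCD diet, without overlap. The rise was 1.22 ± 0.24 (adjusted p = 0.000814, limma), and all 3 probes rose, by up to 2.62 ± 0.32. Without agonist Etnk2 differed by 0.42 ± 0.24 (adjusted p = 0.193, limma), and its interaction was 0.80 ± 0.34 (adjusted p = 0.118, limma). Over the 3 Etnk2 probes the interaction ran from 0.80 to 3.03, and 1 passed.

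Pemt, which methylates phosphatidylethanolamine to phosphatidylcholine at the cost of 3 S-adenosylmethionine, also rose with agonist. It read 9.03, 8.86, 8.67 and 8.39 on the standard diet and 10.17, 9.23, 9.72 and 9.42 on the MCD diet, without overlap, a rise of 0.90 ± 0.29 (adjusted p = 0.0351, limma). Of its 3 probes 1 passed, and the call was lost, at 0.0536 to 0.13, without standard replicate 2, 3 or 4 or MCD replicate 1 or 3 of the agonist groups, under median scaling (adjusted p = 0.112) and under quantile normalization (adjusted p = 0.0923). It was lost too with no filter on dim probes (adjusted p = 0.0643) and with only the compared groups (adjusted p = 0.0996). Without agonist Pemt differed by -0.00 ± 0.29 (adjusted p = 0.993, limma). The choline transporter Slc44a1 had -0.90 ± 0.30 (adjusted p = 0.0511, limma) after hepatectomy without agonist, and the second choline kinase Chkb -0.81 ± 0.32 (adjusted p = 0.0613, limma) before it.

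Of the other enzymes that use S-adenosylmethionine, Gamt, guanidinoacetate methyltransferase of creatine synthesis, fell on the MCD diet after hepatectomy. It was 6.70, 7.84, 7.30 and 7.35 on the standard diet and 5.46, 6.20, 6.33 and 6.80 on the MCD diet, overlapping by 1 array, with a fall of 1.10 ± 0.34 (adjusted p = 0.0343, limma). Both Gamt probes passed, and the call was lost, at 0.051 to 0.14, without standard replicate 2, 3 or 4 or MCD replicate 1, 2 or 3, under normexp (adjusted p = 0.0547) and under median scaling (adjusted p = 0.06). It was lost too with no filter on dim probes (adjusted p = 0.0652) and with only the compared groups (adjusted p = 0.0797). Nnmt, nicotinamide N-methyltransferase, passed in none of the comparisons. Its mean level was 4.11 on the standard diet and 5.86 with agonist, where the highest array read 7.08, and the means differed by 1.74 ± 0.57 (adjusted p = 0.0628, limma).

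Among the 5 polyamine genes with a probe, 2 rose and 1 fell on the MCD diet without agonist, and 1 rose and 0 fell in each of the other 3 diet comparisons. Of all genes 10.8% rose and 15.1% fell in the first. In the others it was 8.18% and 6.95% with agonist, 5.61% and 5.84% after hepatectomy, and 4.4% and 3.89% with both. Odc1, ornithine decarboxylase, which makes putrescine, was 1.81, 3.80, 2.38 and 3.41 on the standard diet and 4.16, 4.36, 4.58 and 4.25 on the MCD diet. The groups were separate, with the standard arrays wide apart, and the rise was 1.49 ± 0.43 (adjusted p = 0.0109, limma). Without standard replicate 1 it was 1.14 (adjusted p = 0.0607). The reported Odc1 probe passed in no other diet comparison, but of its 4 probes 4 passed without agonist, 2 with agonist, 2 after hepatectomy and 3 after hepatectomy with agonist, all higher on the MCD diet.

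Srm, spermidine synthase, rose in 3 of the 4 diet comparisons, and without agonist or surgery differed by 0.40 ± 0.33 (adjusted p = 0.378, limma). With agonist Srm was 3.00, 3.12, 3.95 and 3.13 on the standard diet and 4.51, 4.71, 3.15 and 4.75 on the MCD diet, a rise of 0.98 ± 0.33 (adjusted p = 0.0421, limma). The groups overlapped through replicate 3 of both, and the call was lost, at 0.0906 to 0.125, without standard replicate 1, 2 or 4 or MCD replicate 1, 2 or 4 of these groups, and at 0.158 under median scaling. It was lost too with no filter on dim probes (adjusted p = 0.0738) and with only the compared groups (adjusted p = 0.172). After hepatectomy Srm was 3.74, 4.16, 3.44 and 3.09 against 4.79, 5.10, 4.45 and 4.31, separate, a rise of 1.06 ± 0.33 (adjusted p = 0.035, limma) that was lost, at 0.0817 to 0.124, without standard replicate 3 or 4 or MCD replicate 1 or 2, at 0.0552 under normexp and at 0.0507 under quantile normalization. That call was lost as well with no filter on dim probes (adjusted p = 0.0665) and with only the compared groups (adjusted p = 0.0557). With agonist after hepatectomy Srm was 3.12, 3.27, 3.35 and 3.01 against 4.72, 4.94, 4.88 and 4.35. Those groups lay far apart, and the rise was 1.53 ± 0.33 (adjusted p = 0.00351, limma). The second Srm probe rose after hepatectomy by 1.32 ± 0.29 without and 1.44 ± 0.29 with agonist.

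Sms, spermine synthase, fell without agonist by 0.72 ± 0.26 (adjusted p = 0.0405, limma), from 2.71, 1.52, 1.78 and 1.84 to 1.61, 0.90, 1.43 and 1.03. The groups overlapped, all 3 probes passed, and the call was lost, at 0.0536 to 0.189, without standard replicate 1 or 4 or MCD replicate 2 or 4. Under median scaling Sms was at -0.35 (adjusted p = 0.474). The call was also lost with no filter on dim probes (adjusted p = 0.058) and with only the compared groups (adjusted p = 0.108). With agonist the 2 other Sms probes fell, by 1.16 ± 0.26 and 1.07 ± 0.24, and the reported one had -0.55 ± 0.26.

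Smox, spermine oxidase, which breaks spermine down to spermidine and releases hydrogen peroxide, rose on the MCD diet without agonist. It read 0.14, -1.64, -1.55 and -1.05 on the standard diet and 0.78, 2.01, 0.39 and 1.11 on the MCD diet, without overlap. The rise was 2.09 ± 0.46 (adjusted p = 0.00146, limma), and the second Smox probe, printed above, rose by 1.00 ± 0.30 (adjusted p = 0.017, limma over probes). With agonist Smox was -0.93, 0.28, -1.22 and -0.25 against -1.32, -0.26, -0.49 and -0.63, overlapping, with a change of -0.15 ± 0.46 (adjusted p = 0.877, limma). Sat1, spermidine/spermine acetyltransferase, passed in none of the comparisons.

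**Figure D3:**
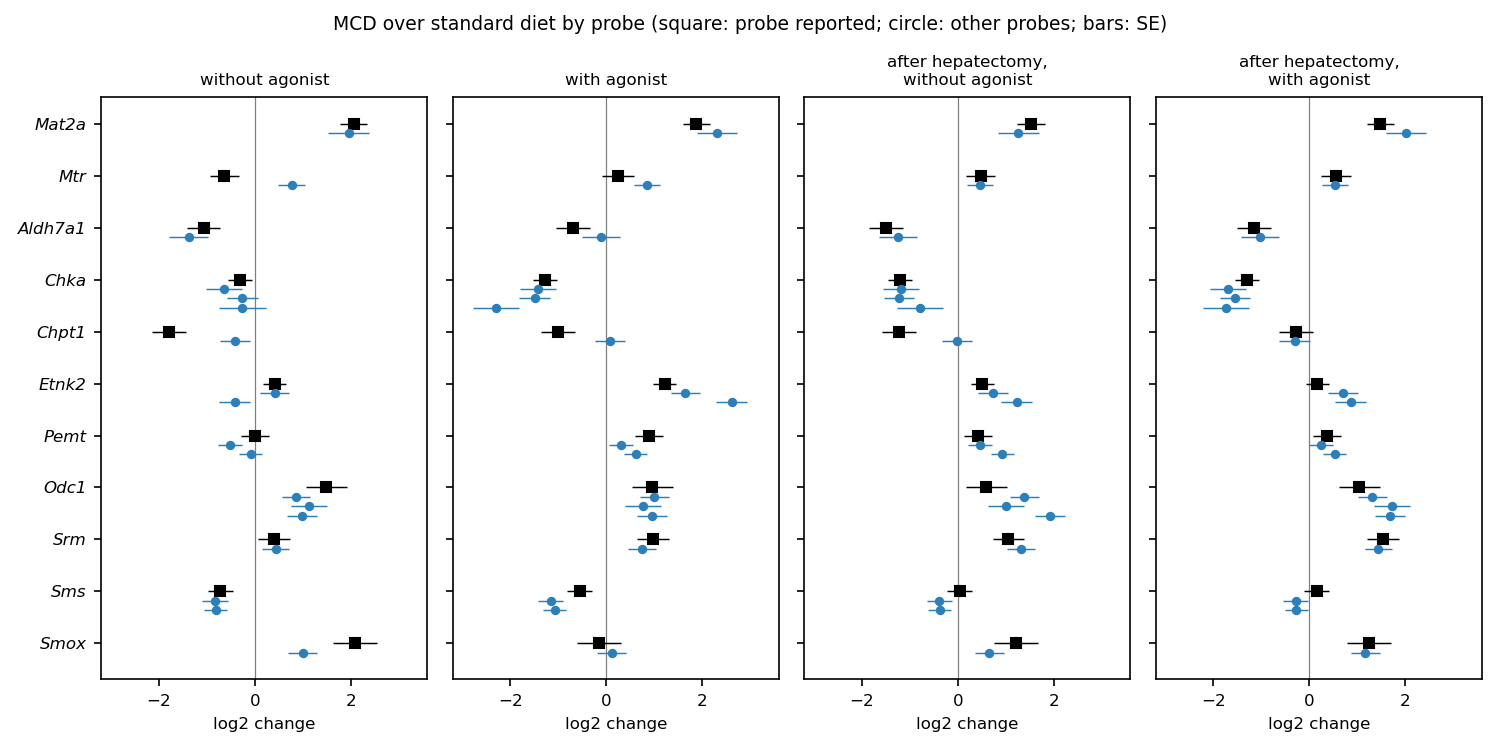
Log2 change on the MCD diet over the standard diet for each probe of 11 genes in the 4 diet comparisons, with the SE as a bar, a square for the probe reported and circles for the others. The probes of Mat2a, Chka, Odc1 and Srm lie on 1 side of 0 in each panel, while those of Mtr without agonist lie on both sides.

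The question of whether the agonist changed the response to the diet is answered by the interaction, in which 3 of the 37 genes passed, 8.11% beside 11.1% of all genes tested, 6.12% higher and 4.94% lower. The share of the set was thus below that of all genes. Sardh had an interaction of 1.37 ± 0.36 (adjusted p = 0.0139, limma) and Gnmt of 1.15 ± 0.36 (adjusted p = 0.0356, limma). Both genes handle sarcosine, and the diet lowered both without agonist, as given above. With agonist the mean of each was lower on the standard diet and higher on the MCD diet. Gnmt went from 9.33 to 8.76 on the standard and from 8.29 to 8.87 on the MCD diet. Sardh went from 7.17 to 6.46 and from 5.91 to 6.58. The agonist change of neither gene passed on either diet. Smox had an interaction of -2.24 ± 0.65 (adjusted p = 0.0246, limma), with the rise on the diet seen without agonist. Gnmt and Sardh were each read by 1 probe, and the second Smox probe had an interaction of -0.89 and did not pass.

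The Sardh interaction passed with each of the 16 arrays left out in turn. That of Smox was lost, at 0.0514 to 0.058, without standard replicate 2, MCD replicate 2, standard with agonist replicate 2 or MCD with agonist replicate 1. The Gnmt interaction was lost without standard replicate 2 or 4, MCD replicate 2 or 4, standard with agonist replicate 2 or 4, or MCD with agonist replicate 1, 3 or 4, at 0.0502 to 0.0782. Under median scaling neither Gnmt (0.61, adjusted p = 0.316) nor Sardh (0.84, adjusted p = 0.181) passed, and under quantile normalization Sardh passed and Gnmt (0.62, adjusted p = 0.21) did not. Over all genes the median interaction was 0.18, so that Gnmt and Sardh lay in the direction of the median gene. Median scaling put that median at -0.36 and 0 genes of the set rose and 2 fell, and quantile normalization put it at -0.00 with 1 that rose and 1 that fell. After hepatectomy 0 of 37 genes passed the diet by agonist interaction in limma, where 0.00461% of all genes did, and 4 were at an unadjusted p under 0.05.

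**Figure D4:**
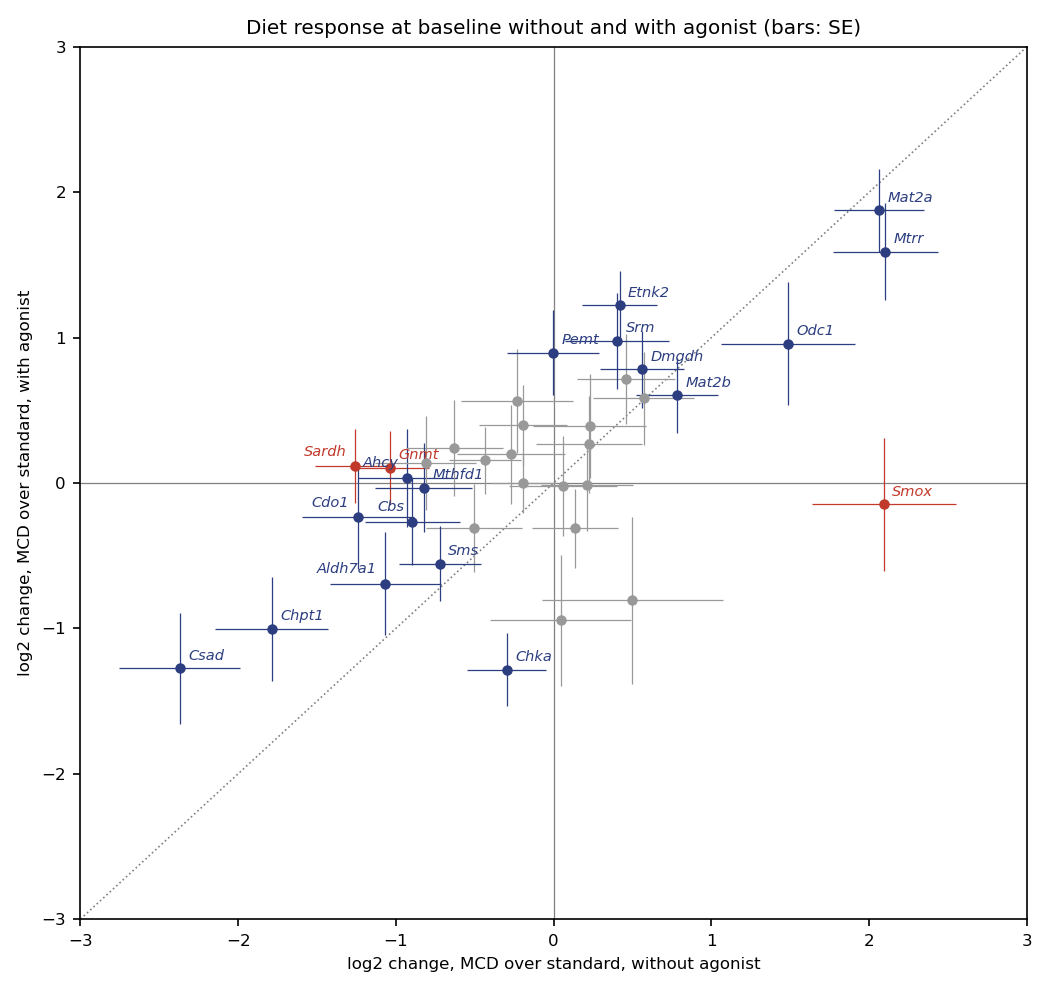
Log2 change on the MCD diet over the standard diet before hepatectomy without agonist (horizontal) and with agonist (vertical) for 37 genes, with the SE as bars, red where the interaction passed and blue where the gene passed in either comparison. Sardh, Gnmt and Smox lie near 0 on the vertical axis and at -1.26, -1.04 and 2.09 on the horizontal one, while Mat2a and Mtrr lie near the dotted line of equal change.

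The agonist comparisons before hepatectomy ran across slides, so that slide and agonist cannot be told apart in them. With agonist against none on the standard diet 1 rose and 0 fell, 2.7% of the set where 6.52% of all genes passed. Of all genes 3.33% were higher and 3.19% lower, and the gene of the set that rose was Mtrr. Its adjusted p was 0.0379 in limma, and 0.739 with normexp. The call was also lost under quantile normalization (0.0551), with no filter on dim probes (0.0699) and with only the compared groups (0.195). Mtrr was well above background on 0 of the 4 standard and 2 of the 4 agonist arrays, and the call was lost, at 0.066 to 0.128, without standard replicate 1, 2 or 4 or standard with agonist replicate 1, 3 or 4. On the MCD diet 2 rose and 1 fell, 8.11% of the set where 13.3% of all genes passed, 8.97% higher and 4.38% lower. Median scaling left 0 that rose and 3 that fell there, and quantile normalization 1 and 1. The count on the MCD diet was unsteady: it was 12 under normexp, ran from 0 without MCD replicate 2 to 10 without MCD with agonist replicate 2, and 14 genes, 12 of them higher, were at an unadjusted p under 0.05.

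On the MCD diet Ahcy rose by 1.12 ± 0.34 (adjusted p = 0.027, limma), from 5.79, 5.61, 6.62 and 5.65 to 6.71, 6.48 and 7.94 with agonist, on 3 arrays because the fourth spot was marked as an outlier. Cdo1 rose by 1.07 ± 0.35 (adjusted p = 0.0435, limma), from 6.84, 6.35, 6.87 and 5.62 to 7.55, 7.32, 8.22 and 6.86. In both genes the groups overlapped. Smox fell by 1.75 ± 0.46 (adjusted p = 0.0131, limma), from 0.78, 2.01, 0.39 and 1.11 to -1.32, -0.26, -0.49 and -0.63, without overlap.

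These calls depended on single arrays, and those of Ahcy and Cdo1 also on the processing. Ahcy was lost, at 0.0602 to 0.226, without MCD replicate 1, 2 or 4 or MCD with agonist replicate 3. With the outlier spot kept, the Ahcy change was 0.76 and did not pass (adjusted p = 0.141, limma). Ahcy was lost too with the mean over probes (0.165), under median scaling (0.142) and with only the compared groups (0.111). Cdo1 was lost, at 0.0793 to 0.169, without MCD replicate 2 or 4 or MCD with agonist replicate 1 or 3. The Cdo1 call was lost as well under normexp (0.0643), median scaling (0.267), quantile normalization (0.101) and only the compared groups (0.0884). Smox was lost without MCD replicate 2 (adjusted p = 0.0561), so that without it 0 genes passed. After hepatectomy the agonist moved 0 of 37 genes on either diet in limma, where 0.00921% of all genes passed on the standard diet and 0.396% on the MCD diet, 0.175% higher and 0.221% lower. At an unadjusted p under 0.05 the counts were 0 and 8, the 8 all higher with agonist.

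Livers after hepatectomy were compared with those before it across slides and scanners. Those mice had also spent 2 more weeks on their diet and, in the agonist groups, on treatment, and no group is labelled as sham-operated. Surgery and this added time cannot be told apart in these comparisons. On the standard diet without agonist 0 rose and 4 fell, 10.8% beside 13.8% of all genes, 6.26% higher and 7.53% lower. With agonist 0 rose and 3 fell, 8.11% beside 7.33%, 2.91% higher and 4.42% lower. On the MCD diet 0 rose and 3 fell without agonist, 8.11% beside 9.47%, 6.45% higher and 3.03% lower. With agonist 1 rose and 3 fell there, 10.8% beside 10.1%, 3.69% higher and 6.45% lower. These shares were close to those of all genes. Under quantile normalization 0, 2, 3 and 2 genes passed in these 4 comparisons, and under normexp 8, 11, 0 and 17.

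Pemt fell after hepatectomy in 3 of the 4 groups. On the standard diet it was 8.42, 9.34, 8.69 and 8.92 before and 7.71, 7.98, 7.81 and 7.44 after, without overlap, a fall of 1.11 ± 0.29 (adjusted p = 0.0124, limma). With agonist on the MCD diet Pemt was 10.17, 9.23, 9.72 and 9.42 before and 8.78, 7.87, 7.72 and 7.96 after, also separate, with a fall of 1.55 ± 0.29 (adjusted p = 0.00185, limma). With agonist on the standard diet it fell by 1.03 ± 0.29 (adjusted p = 0.0299, limma), a call lost at 0.0535 to 0.0846 without any of standard with agonist replicates 1 to 3 or standard with agonist after hepatectomy replicates 1, 2 and 4. On the MCD diet without agonist the difference was -0.67 ± 0.29 (adjusted p = 0.15, limma). Of the 3 Pemt probes, 3 passed on the standard diet without agonist and 1 in each of the other comparisons in which it fell.

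Csad fell after hepatectomy on the standard diet, by 1.29 ± 0.38 without agonist (adjusted p = 0.0244, limma) and 1.25 ± 0.38 with it (adjusted p = 0.0425, limma). Mtr, with its brighter probe, fell in the same comparisons by 0.90 ± 0.31 (adjusted p = 0.0493, limma) and 1.24 ± 0.31 (adjusted p = 0.0153, limma), and its level ranged from 0.20 to 2.08 before and from -0.18 to 0.65 after, without agonist. The second Mtr probe differed by 0.26 and 0.12 there, of the opposite sign. Gnmt fell without agonist by 0.82 ± 0.25 on the standard diet (adjusted p = 0.0287, limma) and by 0.83 ± 0.25 on the MCD diet (adjusted p = 0.0333, limma). Without standard replicate 1 after hepatectomy, which read 7.63, the Gnmt fall on the standard diet was 0.53 (adjusted p = 0.164).

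On the MCD diet Bhmt fell by 1.13 ± 0.34 (adjusted p = 0.0303, limma) and Dmgdh by 1.01 ± 0.27 (adjusted p = 0.0159, limma) without agonist. With agonist Dmgdh fell by 0.90 ± 0.27 (adjusted p = 0.0311, limma), Etnk2 by 0.74 ± 0.24 (adjusted p = 0.0439, limma), and Smox rose by 1.78 ± 0.46 (adjusted p = 0.0145, limma). Smox was then 0.90, 1.83, 1.22 and 0.46, above all 4 arrays of the MCD diet with agonist without surgery. Apart from Pemt on the standard diet without agonist and on the MCD diet with agonist, each hepatectomy call named here was lost without at least 1 array of its groups, with an adjusted p of up to 0.182. Of the 14 calls, 2 passed under every other processing tried, Pemt and Smox on the MCD diet with agonist, and Pemt on the standard diet without agonist was at -0.58 under quantile normalization (adjusted p = 0.224). The diet by hepatectomy interactions had 0 of 37 genes past the threshold in limma, where 2.59% of all genes passed without agonist and 0.336% with it. At an unadjusted p under 0.05 there were 8 and 3.

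The surrounding pathways were read from lists of other genes. Of all genes tested, 10.8% rose and 15.1% fell on the MCD diet without agonist, and 8.18% and 6.95% with agonist. After hepatectomy these shares were 5.61% and 5.84% without agonist, and 4.4% and 3.89% with it. The counts of the lists were not tested against these shares. Of 20 further folate and glycine genes, 6 rose and 4 fell on the MCD diet without agonist, 2 and 1 with agonist, 4 and 3 after hepatectomy, and 4 and 1 after hepatectomy with agonist. Mthfd1l, the mitochondrial enzyme that releases formate from formyl-tetrahydrofolate, rose in all 4, by 4.13 ± 0.35, 3.51 ± 0.35, 2.91 ± 0.35 and 2.45 ± 0.35 (adjusted p = 3.54e-09, 7.84e-08, 2.38e-06 and 5.08e-05 in limma). Slc19a1, the reduced folate carrier, rose in the last 3, by 1.83 ± 0.28, 1.66 ± 0.28 and 1.53 ± 0.28.

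Of 13 genes for glutathione, taurine conjugation and sulfide, 0 rose and 2 fell without agonist, 2 and 2 with agonist, 0 and 3 after hepatectomy, and 1 and 1 with both. Ethe1, the sulfur dioxygenase of sulfide breakdown, fell in all 4, by 1.68 ± 0.27, 0.87 ± 0.27, 1.37 ± 0.27 and 0.89 ± 0.27 (adjusted p = 6.46e-05, 0.0274, 0.00134 and 0.0386 in limma). Of 9 genes of methionine salvage, creatine and S-adenosylmethionine transport, 2 rose and 1 fell, 0 and 1, 0 and 1, and 0 and 2 in the same order. The gene that fell each time was Ahcyl2, a relative of Ahcy, with changes of -0.87 ± 0.25, -2.04 ± 0.25, -0.87 ± 0.25 and -0.94 ± 0.25, with an interaction of -1.17 ± 0.36 (adjusted p = 0.0326, limma).

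Of 15 other methyltransferases, 2 rose and 3 fell on the MCD diet without agonist, 1 and 1 with agonist, 0 and 2 after hepatectomy, and 1 and 0 with both. For 12 genes of choline transport and phosphatidylcholine turnover the counts were 0 and 2, 0 and 0, 0 and 1, and 1 and 0. For 7 genes of phosphatidylethanolamine and phosphatidylserine synthesis they were 0 and 2, 0 and 1, 0 and 1, and 0 and 0. For 14 genes of polyamine regulation and hypusine they were 1 and 1, 2 and 0, 1 and 1, and 3 and 0. The median changes of these lists without agonist, in the order described, were -0.14 for folate and glycine, -0.08 for sulfur products, 0.20 for salvage and creatine, -0.21 for methyltransferases, 0.21 for choline transport, -0.58 for phosphatidylethanolamine and -0.28 for polyamine regulation, beside -0.13 over all genes.

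Markers of several cell types moved with the diet too, which does not tell cell number from RNA per cell. Of all genes 10.8% rose and 15.1% fell without agonist, 8.18% and 6.95% with it, and 6.12% and 4.94% in the interaction. All 7 hepatocyte markers tested were well above background on all 32 arrays, and without agonist 0 rose and 2 fell, Apoa1 by 1.13 ± 0.25 and Ass1 by 0.69 ± 0.20. Their summed level was 11.82 to 12.24 on the standard diet and 11.27 to 11.53 on the MCD diet, and 11.59 to 12.17 and 11.62 to 11.94 with agonist. In the same comparison 6 of 7 markers of recruited macrophages, 3 of 5 of Kupffer cells and 6 of 6 of dividing cells rose. The summed level of the dividing cell markers went from between -0.42 and -0.13 to between 1.43 and 2.86, and that of the recruited macrophage markers from between 1.94 and 2.55 to between 4.50 and 5.43. With agonist 1 of 6 dividing cell markers and 1 of 7 recruited macrophage markers rose, and in the interaction 5 of 6 and 2 of 7 fell. Kupffer cell markers fell in the interaction in 4 of 5 cases, led by Vsig4 with -4.04 ± 0.63 (adjusted p = 0.000387, limma), and stellate cell markers in 3 of 7, led by Col3a1 with -2.24 ± 0.54 (adjusted p = 0.00919, limma). The summed stellate level was 5.99 to 6.47 on the standard and 7.54 to 8.58 on the MCD diet without agonist, where 2 of 7 rose, and the Kupffer level 5.29 to 6.11 and 6.53 to 8.02. Of 5 adipocyte markers listed, Adipoq, Plin1 and Lep were not among the genes tested. Of the 2 tested 1 rose, Cidec by 4.22 ± 0.64 (adjusted p = 3.46e-05, limma), and 1 gene does not speak for adipocytes. The summed level of the T and B cell markers was 1.73 to 2.20 on the standard and 0.70 to 1.34 on the MCD diet without agonist. The part of these markers in the changes of the 37 genes, with Gnmt, Sardh and Smox among them, was not tested.

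With agonist on the standard diet 4 of 5 Kupffer cell markers rose, where 3.33% of all genes did. With agonist on the MCD diet 4 of 5 of these and 5 of 6 dividing cell markers fell, where 4.38% of all genes did. Hepatectomy on the standard diet came with higher markers as well, 6 of 6 for dividing cells, 6 of 7 for recruited macrophages and 5 of 5 for Kupffer cells. In that comparison 1 of 7 hepatocyte markers fell, Apoa1 by 0.83 ± 0.25, and of all genes 6.26% rose and 7.53% fell. The summed hepatocyte level was 10.89 to 11.95 there and the dividing cell level 0.23 to 3.90. The part of these shifts in the falls of Pemt, Csad, Mtr and Gnmt was not tested.

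Promoters are shown for Gnmt and Sardh, whose diet response differed with agonist in the same direction, and for Cbs, which fell on the MCD diet and whose window holds a motif searched for. The windows are 300 bases long, the greater part before the start of the gene, and are taken from RefSeq on GRCm38.p6, which is a different build from that of the probes. Windows were at hand for 31 of the 38 genes. A pair of motifs was looked for on both strands. The ATF4 and C/EBP element core TGATGNAA was in 0 of the 31 windows, beside 4.51% of 27025 genes. The E-box CACGTG was in those of 2 of 31 genes, Cbs and Sms, beside 8.09% of all genes, and is in capitals.
Gnmt, chr17:46729116-46729415, minus strand: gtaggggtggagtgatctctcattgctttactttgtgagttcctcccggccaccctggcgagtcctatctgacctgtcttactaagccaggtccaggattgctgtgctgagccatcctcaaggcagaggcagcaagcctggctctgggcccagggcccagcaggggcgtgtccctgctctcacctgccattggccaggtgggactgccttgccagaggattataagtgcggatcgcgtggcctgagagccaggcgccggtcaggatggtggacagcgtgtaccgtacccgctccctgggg
Sardh, chr2:27247254-27247553, minus strand: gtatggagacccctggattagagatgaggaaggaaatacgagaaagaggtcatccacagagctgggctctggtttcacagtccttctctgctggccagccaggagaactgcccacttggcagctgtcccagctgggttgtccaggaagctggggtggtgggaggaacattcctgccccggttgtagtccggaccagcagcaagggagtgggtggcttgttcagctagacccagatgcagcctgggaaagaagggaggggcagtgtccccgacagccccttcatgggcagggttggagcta
Cbs, chr17:31637156-31637455, minus strand: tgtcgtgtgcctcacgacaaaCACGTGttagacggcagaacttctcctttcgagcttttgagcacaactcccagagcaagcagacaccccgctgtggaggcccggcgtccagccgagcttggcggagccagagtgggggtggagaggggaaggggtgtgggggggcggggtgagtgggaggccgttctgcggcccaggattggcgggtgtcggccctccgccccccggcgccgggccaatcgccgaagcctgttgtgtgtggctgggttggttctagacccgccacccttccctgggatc
A match or its absence in such a window is a description of the letters only. Sms also fell without agonist.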

How the data were processed

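The deposited scanner files hold linear intensity per spot, and the signal column used was already background-subtracted by Feature Extraction 10.7.3.1, per the file headers. The authors also deposited a table of log2 values, and limma is named in the submitters' processing notes without a version. Its column medians were 6.53 to 6.55 before and 7.05 to 7.06 after hepatectomy, and how it was centred is not given in the sources used here. It served as an alternative within each of these sets only, matched by spot number.

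Levels were the log2 signal after each array had been set to its own 75th percentile. Outlier spots were left out (5010, 0.264%), at most 2 spots per array were saturated and kept, and repeated spots were averaged. A probe was tested if some group had all 4 of its arrays well above background (30139 probes), and a gene was read from its brightest tested probe. In the set 21 genes had several probes, and 3 of the values were missing. Symbols came from the files and were updated by accession (31098 spots), symbol (3495) or synonym (321) through a table of GRCm38.p6, which served for names and promoters. The other names are the files' own.

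One fit with limma 3.58.1 (R 4.3.3) over all 32 arrays gave 16 contrasts, with Benjamini-Hochberg adjustment under 0.05. On simulated data for the diet comparison without agonist, over 21710 genes, 31 of 100 genes changed 2-fold and 82 of 100 changed 4-fold were called, with 10 false calls. No other genes were changed there, whereas 5610 genes (25.8%) passed in the data. The adjustment depends on the share of genes changed, so these rates do not carry over to that comparison. The number of arrays limits the precision. "At least" folds compare the mean of the brighter group with a floor for the dimmer one, averaged over its arrays, where the floor is the lowest well-above-background signal of the array unless the probe itself read higher. The alternatives changed the background correction (normexp), the scaling (median, quantile), the filter on dim probes (none), the probe per gene (their mean), the outlier spots (kept), the arrays in the fit (compared groups, 1 array left out), the blocks (replicate, slide) and the source (the deposited table). Values per array are given for genes that passed in a diet or agonist comparison, and of other lists up to 4 genes with the smallest adjusted p. The genes and lists were chosen with earlier results of these data known. One gene of the folate list is counted there and not reported by name here.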

Additional observations from a re-analysis of the deposited data

Results flagged for a closer look

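Within groups of 4 arrays, 1 array stood apart from the other 3 in 15 of 293 sets, where its gap to the nearest array exceeded Dixon's critical value as a share of the group's range, and chance gives about 1 in 20. The values that follow are these shares of the range. On the standard diet Mat2b replicate 2 was high (0.924), as were Bhmt2 replicate 4 (0.932), Cbs replicate 1 (0.881) and Etnk1 replicate 2 (0.855). With agonist on the standard diet Mtrr replicate 2 was low (0.856) and Srm replicate 3 high (0.857). With agonist on the MCD diet Shmt1 replicate 2 (0.892) and Srm replicate 3 (0.853) were low and Gamt replicate 1 high (0.832).

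After hepatectomy Ahcy replicate 1 was low on the standard diet (0.837) and Sms replicate 4 on the standard diet with agonist (0.909). On the MCD diet after hepatectomy Gnmt replicate 1 (0.867), Ahcyl1 replicate 3 (0.938) and Chka replicate 2 (0.921) were low. With agonist Mat2a replicate 4 was low there (0.881), at 5.29 where the next array read 6.85. Without that array the rise of Mat2a in that comparison passed as well.

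The diet response with agonist differed from that without it for Gnmt, by 1.15, for Sardh, by 1.37, and for Smox, by -2.24 on the log2 scale, each past the threshold in limma.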

How the results depend on the processing

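Of 61 calls of single genes, 44 kept direction and threshold under normexp, 16 were lost and 1 turned, Mtrr without agonist or surgery (-0.24). Of the 61, 38 held under median scaling, 43 under quantile normalization, 47 without the filter, 54 with the mean over probes, 58 with outlier spots kept, 40 with only the compared groups, and 58 with the replicate block. A slide block leaves comparisons within a slide as they are and is no check of them. With single arrays left out 355 of 512 calls held. In no comparison were all 4 same-number correlations over 0.1, and the main fit did not pair arrays by replicate number. In the diet comparison with agonist, however, each of 4 arrays correlated best with its own number (0.08 to 0.17). The same held for the diet after hepatectomy without agonist (0.07 to 0.23) and the agonist on the MCD diet before hepatectomy (0.072 to 0.096). Replicate number and column on the slide were the same and cannot be told apart. Counts of genes of the set that passed, are given where they moved clearly from the counts in the report. Before hepatectomy the agonist comparisons on the standard and MCD diets gave 5 and 12 under normexp, 2 on the standard diet under median scaling, 0 there under quantile normalization and without the filter, 2 there with the mean over probes, 0 and 1 with only the compared groups, and 5 on the MCD diet with the replicate block. The diet comparison with agonist gave 5 without the filter and 5 with only the compared groups, and those after hepatectomy gave 6 and 8 with only the compared groups and, with agonist, 8 with the mean over probes. The hepatectomy comparisons in the report's order gave 8, 11, 0 and 17 under normexp. Median scaling gave 1 in the first and 2 in the fourth, quantile normalization 0 and 2, only the compared groups 2 and 2, no filter 1 in the third, and the mean over probes 1 in the second. The diet by agonist interaction gave 6 under normexp and 6 with the mean over probes, and the diet by hepatectomy interaction without agonist 1 under normexp and 1 under quantile normalization. The deposited table under its own labels gave 1 and 4 for the diet, 12 and 6 for the agonist and 1 for the interaction before hepatectomy, and 0 and 0 for the diet and 17 and 7 for the agonist after it. With its columns at the arrays they matched the interaction gave 1, and 11 of its 12 calls for the diet without agonist were also calls here. Leaving out single arrays gave 8 to 16, 4 to 10, 8 to 15 and 4 to 6 for the 4 diet comparisons, 0 to 2 and 0 to 10 for the agonist before and 0 to 0 after hepatectomy, 1 to 5, 0 to 3, 0 to 3 and 1 to 7 for hepatectomy, and 1 to 3 for the interaction. After hepatectomy the interaction stayed at 0 to 0, and the diet by hepatectomy interaction ran from 0 to 2 without and 0 to 0 with agonist. The lowest count for the diet without agonist, 8, came without standard replicate 1 or MCD replicate 4, and that with agonist, 4, without standard with agonist replicate 4. For the agonist on the MCD diet 0 passed without MCD replicate 2 and 10 without MCD with agonist replicate 2. The interaction count was 1 without replicate 2 of standard, MCD or standard with agonist, or replicate 1 of MCD with agonist. Over all genes tested, 8184 passed for the diet without agonist under normexp, beside 5610. The cause was not tested. Dim probes limit Mtrr, and slide, scanner and day limit comparisons across slides.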
